A study of Mus musculus with 8 samples.

Results

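This report follows 10 of the 32285 genes counted in bone marrow cells of young, middle-aged, old and very old mice, all of them genes of the cytoskeleton or its regulation. Actb and Actg1 encode the cytoplasmic actins, Pfn1, Tmsb4x and Tmsb10 proteins that bind actin monomers, Cfl1 the severing factor cofilin, Arpc2 a subunit of the Arp2/3 complex, Arhgdib a regulator of the actin network in blood cells, Vim the intermediate filament protein vimentin, and Sh3bgrl3 a small thioredoxin-like protein. The 10 genes were chosen from earlier results on these same mice, by how their counts varied between cells resembling haematopoietic stem cells (HSC) at different ages. Their values in HSC-like cells are therefore described without a test, and tests of these members are given only in other cell classes.

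The cells were sorted from the marrow of 8 wild-type mice as lineage-negative and positive for c-Kit, and each of the 8 single-cell libraries came from 1 mouse. A male and a female were taken at each of 4 ages: 14 weeks (young), 50 weeks (middle-aged), 78 weeks for the old male and 79 weeks for the old female, and 95 weeks (very old). The 4 old and very old mice, called older mice below, are compared with the 2 young mice, and with 1 mouse of each sex at an age, sex and animal cannot be told apart within it. In the labels, both very old libraries belong to the series SL20 and the other 6 to SL19, so the age of 95 weeks and the library series cannot be told apart.

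Actin is held as monomers and as filaments, and cells turn one into the other continuously. Profilin and the thymosins hold the pool of monomers, cofilin severs ageing filaments, and the Arp2/3 complex starts branches. In blood-forming cells this network serves adhesion to the niche, migration, division and, in megakaryocytes, the release of platelets, and vimentin forms a separate network of filaments linked to it.

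The libraries held 83062003 to 150135029 unique molecular identifiers (UMIs) each, and 59136 cells were kept. Of 58996 distinct barcodes, 467 occurred in 2 or more libraries. Clusters were named from marker genes, which gave HSC-like, MPP-like (multipotent progenitor), Granulocyte progenitor-like, Monocyte-like, Basophil and mast-like, Megakaryocyte-like and Erythroid-like classes of 1789 to 15348 cells, and 12226 cells were in other classes or unnamed. The largest Granulocyte progenitor-like cluster (3760 cells) was led by the monocyte markers F13a1, Irf8 and Ms4a6c, ahead of Mpo, Prtn3 and Ctsg. The Monocyte-like class was led by F13a1, Ms4a6c and Ctsg, and all its cells scored as cycling. These classes thus share markers and are not cleanly separated. A mean level is the sum of a gene's UMIs in a class of 1 mouse, as CPM (the count scaled to a common total of 1000000 UMIs) scaled within the class, tested with edgeR. Cell-to-cell spread is the log2 ratio of the variance of a gene's log-normalised values to that which a trend over genes gave at its mean. It was taken in cells thinned to 4500 UMIs each and tested with limma. A spread of 0 lies on the trend, whose height depends on the genes fitted, so the sign alone is not read. For Actb in HSC-like cells of the young male it was 0.20, and -0.42 when genes found in 5% of cells were included. A gene passed when its p-value, adjusted over all genes tested, was under 0.05, and all 10 members passed the filters on low values in every class.

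Actb and Actg1 have nearly identical coding sequences, and Tmsb4x and Tmsb10 are close relatives, so these counts cannot show how reads of a pair were divided. In GENCODE vM21 on GRCm38, Actb lies at chr5:142903115-142906754 and Actg1 at chr11:120345690-120348542. Pfn1 (chr11:70651850-70654644), Tmsb4x (chrX:167207093-167209315), Tmsb10 (chr6:72957347-72958748), Arhgdib (chr6:136923655-136941899) and Sh3bgrl3 (chr4:134127406-134128789) lie on the minus strand, as do both actins. Cfl1 (chr19:5490455-5495201), Arpc2 (chr1:74236084-74268209) and Vim (chr2:13573927-13582826) lie on the plus strand.

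Vim is described below for its mean level and Actg1 for its spread in HSC-like cells, and the 250 bases before each RefSeq start on GRCm38.p6 are shown for these genes. Capitals mark a TATA box (TATAAA) before Vim, at chr2:13574061-13574310 on the plus strand, which begins 32 bases before the start. Before Actg1, at chr11:120348496-120348745 on the minus strand, they mark a CArG box, the sequence bound by serum response factor, which begins 90 bases before the start.
Vim: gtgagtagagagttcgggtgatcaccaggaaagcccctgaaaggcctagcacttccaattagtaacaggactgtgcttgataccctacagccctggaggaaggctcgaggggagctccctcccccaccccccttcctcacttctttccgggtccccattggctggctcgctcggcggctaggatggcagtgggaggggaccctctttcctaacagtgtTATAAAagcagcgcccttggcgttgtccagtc
Actg1: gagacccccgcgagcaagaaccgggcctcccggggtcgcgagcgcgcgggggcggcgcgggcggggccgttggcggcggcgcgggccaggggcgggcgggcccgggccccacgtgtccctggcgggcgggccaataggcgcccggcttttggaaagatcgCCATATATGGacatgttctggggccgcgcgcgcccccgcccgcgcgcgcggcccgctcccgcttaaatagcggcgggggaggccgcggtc

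RefSeq starts were matched for 9 of the 10 genes, at 13 promoters. No promoter was found for Actb, so it was not searched for these sequences. On both strands of the same 250 bases, TATAAA was found in 12.4% and the CArG box in 1.47% of 32851 RefSeq promoters. Of the 9 genes, Actg1 alone held a CArG box there, and TATAAA was found for Vim and for 1 promoter of Arhgdib. These are matches of letters, not measured binding sites.

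The members were found in every class, at levels that differed between classes. CPM was scaled within each class separately, so levels set across classes are a description. Vim was lowest in Erythroid-like cells, where its level was 29.1 to 138 CPM over the 8 mice, and highest in Basophil and mast-like cells at 691 to 924 CPM. Tmsb4x ran from 178 to 385 CPM in Erythroid-like cells and 1841 to 2219 CPM in HSC-like cells to 3680 to 6670 CPM in Granulocyte progenitor-like cells. Arpc2 had 217 to 295 CPM in Erythroid-like cells and 408 to 521 CPM in HSC-like cells, the next class above.

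For 5 of the 10 members, Arpc2, Sh3bgrl3, Arhgdib, Vim and Tmsb4x, every mouse had a lower level in Erythroid-like cells than any mouse had in the next class. Cfl1 was lowest in HSC-like cells (539 to 692 CPM), below Granulocyte progenitor-like cells (711 to 787 CPM) with no overlap. Sh3bgrl3 in Basophil and mast-like cells lay above Megakaryocyte-like cells, and Tmsb4x in Basophil and mast-like cells above MPP-like cells, also without overlap. All other neighbours in the order of a gene's levels overlapped, which includes every neighbour for Actb, Actg1, Pfn1 and Tmsb10. Actb and Pfn1 had their highest medians in Megakaryocyte-like cells.

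**Figure D1:**
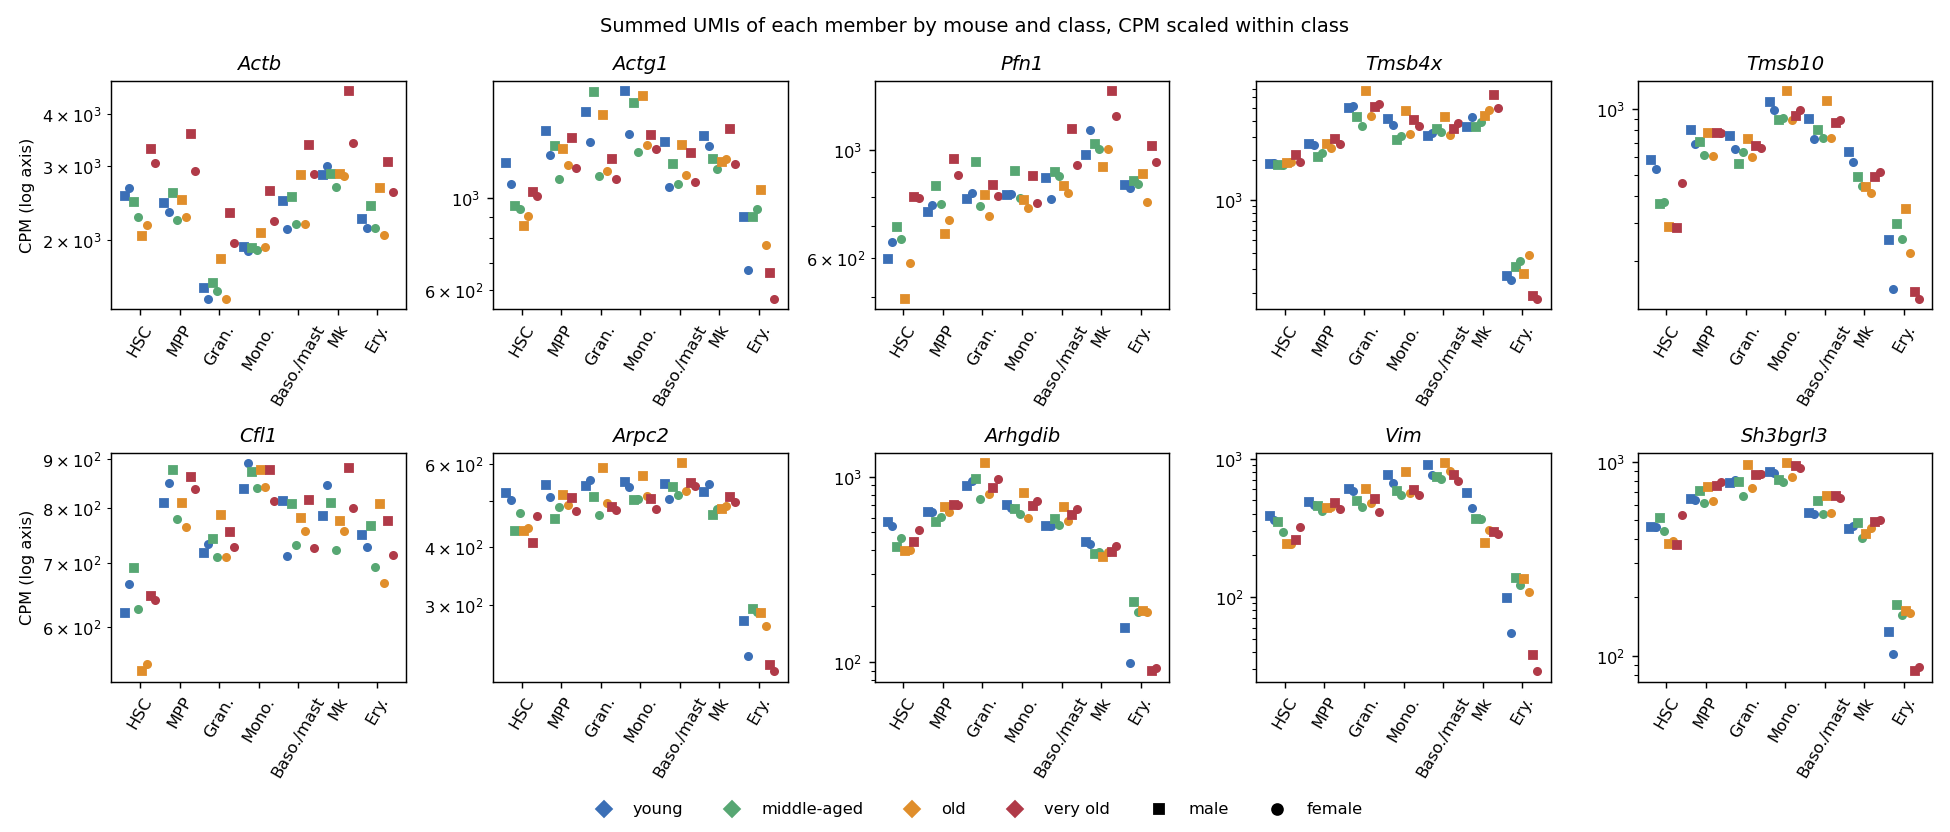
Each panel plots 1 member, with class on the x axis and CPM, scaled within the class, on a log y axis; each point is 1 mouse, colour gives its age, squares are males and circles females. Vim (29.1 to 138 CPM) and Tmsb4x (178 to 385 CPM) are lower in Erythroid-like cells than in every other class.

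Profiles over the 56 combinations of class and mouse were compared with the mean profile of the members, across 9773 genes. The genes outside the list with the most similar profiles were Bin1 (Pearson r = 0.938), Cotl1 (r = 0.930), Atxn10 (r = 0.916), Twf2 (r = 0.915) and Adgrg3 (r = 0.912). Cotl1 encodes the actin-binding coactosin-like protein and Twf2 a twinfilin, which binds actin monomers. Among the members, 7 had r between 0.844 (Arhgdib) and 0.921 (Tmsb10), while Cfl1 had 0.584, Pfn1 0.273 and Actb 0.0764. The points share classes and libraries, and the values have no test.

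Whether the members changed their level with age outside HSC-like cells was asked first for the older mice. Vim and Tmsb10 fell in Megakaryocyte-like cells. In MPP-like, Granulocyte progenitor-like, Monocyte-like, Basophil and mast-like and Erythroid-like cells, 0 of 10 members passed with edgeR and 0 with DESeq2, and the unadjusted p was under 0.05 for 2, 2, 1, 4 and 1 members, beside 5.92% to 8.94% of all genes. Of all genes, 0.532% passed in MPP-like, 0.0493% in Granulocyte progenitor-like, 0.0854% in Monocyte-like, 0.029% in Basophil and mast-like and 0.00798% in Erythroid-like cells. The median log2 difference over the 10 members lay between -0.02 (Monocyte-like) and 0.14 (Basophil and mast-like) in these 5 classes, beside -0.01 to 0.01 over all genes.

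In Megakaryocyte-like cells the level of Vim was 561 CPM in the young male and 443 CPM in the young female, 365 and 369 CPM in the middle-aged mice, 248 and 304 CPM in the old, and 296 and 284 CPM in the very old (male, then female, as in all lists below). All 4 older mice lay below both young mice, and the middle-aged mice lay between. The log2 difference of older against young mice was -0.82 (SE 0.10, edgeR adjusted p = 0.000796), a level 43.5% lower. Leaving out 1 mouse at a time moved it between -1.03 and -0.61, and it passed each time.

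Tmsb10, which encodes thymosin beta 10, was at 634 and 573 CPM in the young mice, 487 and 443 CPM in the middle-aged, 440 and 409 CPM in the old and 485 and 513 CPM in the very old. The older mice did not overlap the young, and the lowest values were those of the old mice. The log2 difference was -0.39 (SE 0.08, edgeR adjusted p = 0.018), a level 23.6% lower. It did not pass without the young male (edgeR adjusted p = 0.322), the old male (0.0514), the old female (0.0509) or the very old male (0.067), without a term for sex (0.0561) or with age in weeks (0.205).

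Thus 2 of 10 members fell in this class and 0 rose, where 0.677% of all genes were lower and 1.95% higher, and DESeq2 called the same number lower. Tmsb4x, thymosin beta 4, had 3578 and 4273 CPM in the young mice, 3615 and 3916 CPM in the middle-aged, 4328 and 4794 CPM in the old and 6245 and 4966 CPM in the very old. All 4 older mice were above both young mice, but the difference did not pass (log2 0.37, SE 0.10, edgeR adjusted p = 0.0758). Arpc2 and Arhgdib were lower in all 4 older mice than in both young mice without passing, by -0.11 and -0.16 on the log2 scale. The median over the 10 members was -0.06, beside 0.00 over all genes.

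**Figure D2:**
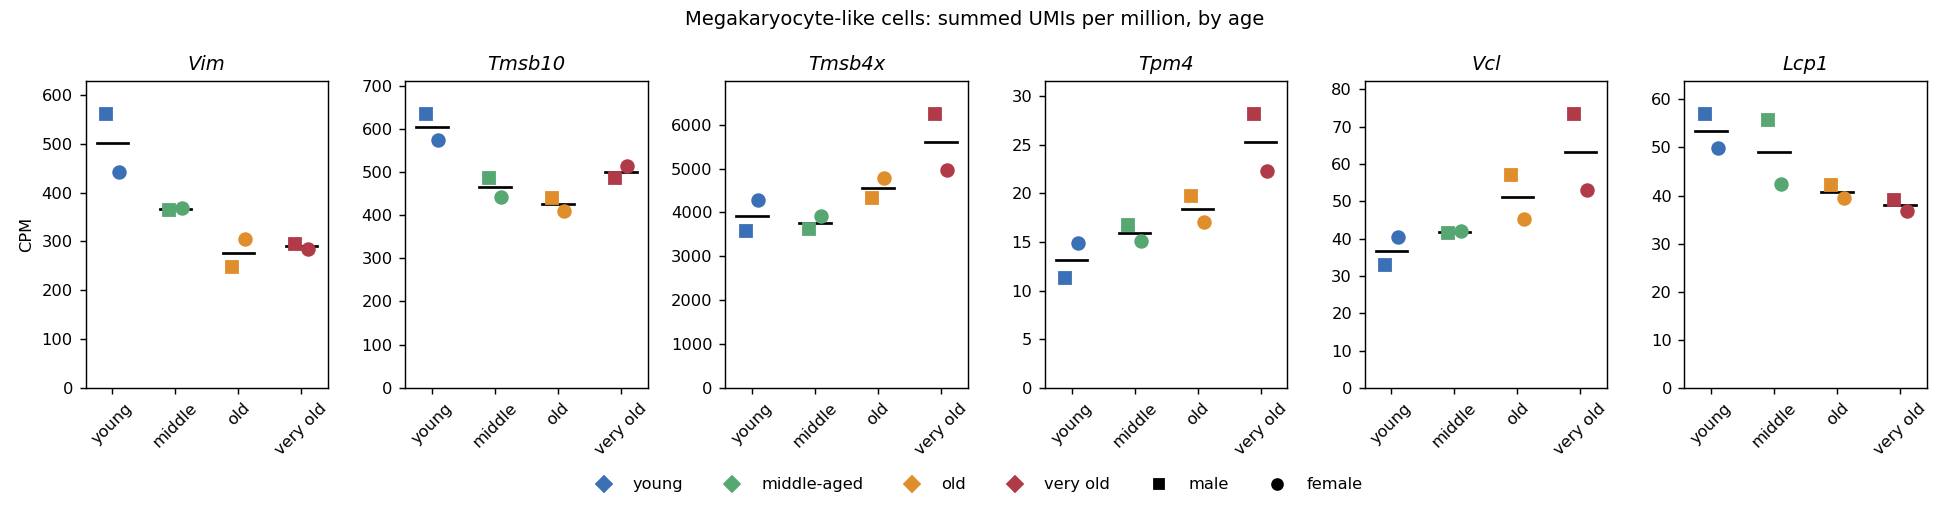
CPM (y axis, from 0) against age (x axis) in Megakaryocyte-like cells for 3 members and 3 genes of the wider actin list; squares are males, circles females and the bars the mean of the 2 mice of an age. Vim falls from 561 and 443 CPM in the young mice to between 248 and 304 CPM in the older mice, Tmsb10 and Lcp1 are lower and Tpm4 and Vcl higher in all older than in all young mice, and Tmsb4x is higher without passing the test.

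The share of Megakaryocyte-like cells with a Vim UMI, at 4500 UMIs per cell, was 67.3% and 58.1% in the young mice, 57.7% and 56.0% in the middle-aged, 43.8% and 47.0% in the old and 44.2% and 47.0% in the very old. In Erythroid-like cells, the class with the lowest Vim, it was 9.3% to 38.9% at the same depth. Across the cells of a mouse, Vim and Tmsb4x had a Spearman correlation of -0.54 to -0.38 in the 8 mice and Vim and Tmsb10 one of 0.23 to 0.36. Cells with more Vim thus held less Tmsb4x and more Tmsb10, in every library.

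The summed level of the megakaryocyte markers, 9 of 9 with UMIs, was 2371 to 3211 CPM in the young mice, 2352 to 3134 CPM in the middle-aged and 3874 to 5521 CPM in the older mice. Pf4, which encodes platelet factor 4, made up most of this sum, at 1654 and 2418 CPM in the young mice and 2843, 3333, 4392 and 2998 CPM in the older mice. Gp9, Plek, Vwf and Cavin2 were also higher in all older than in both young mice, while Itga2b, Gp1bb, Gp5 and Ppbp overlapped. Platelet markers, 4 of 4 with UMIs and all of them also on the megakaryocyte list, stood at 1723 to 2498 CPM in young and 2945 to 4526 CPM in older mice. HSC markers (15 of 15) stood at 618 to 655 and 721 to 947 CPM, macrophage markers (6 of 6) at 17.9 to 26.7 and 3.56 to 14.8 CPM, and T and NK cell markers (3 of 4, Cd3e at 0) at 329 to 460 and 308 to 330 CPM. Erythroid markers (19 of 19) stood at 1570 to 1625 CPM in young and 1277 to 1483 CPM in older mice.

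Cells were therefore split into tertiles of their megakaryocyte marker UMIs. The lowest tertile (0 to 2 marker UMIs) held 43.6% and 42.5% of these cells in the young mice and 22.9% to 32.1% in the older mice. Vim was most abundant in that tertile, at 4.57 and 3.87 UMIs per cell in the young mice and 2.66, 3.54, 3.29 and 2.58 in the older mice. In the highest tertile (13 to 193 marker UMIs) it was 0.492 and 0.279 UMIs per cell in the young and 0.169 to 0.265 in the older mice.

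The log2 difference of Vim was -0.45 in the lowest tertile (edgeR adjusted p = 0.0337), -0.41 in the middle tertile (adjusted p = 0.150) and -0.60 in the highest (adjusted p = 0.386). In each tertile it had the same sign as over the class and was smaller, and it passed in the lowest, where 24 of 8433 genes did. Of all genes, 38 of 8230 passed in the middle tertile and 15 of 7876 in the highest. Tmsb10 gave -0.20, -0.28 and -0.35 and passed in none (edgeR adjusted p = 0.815, 0.440 and 0.272). Tmsb4x differed by 0.07, 0.04 and 0.12 within the tertiles (edgeR adjusted p = 0.962, 0.969 and 0.819). Over all cells of the class, without thinning, it differed by 0.37. The tertiles and the class thus differ in their cells and depth for each of these genes. The part of the markers in the smaller differences was not tested.

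The fits within tertiles and clusters, and the comparison of classes below, were added after the values over the class were seen. Single clusters were fitted only in Megakaryocyte-like and Erythroid-like cells. These fits use the same mice and are no independent support for the calls over the class. The class was made of 3 clusters. In the cluster with the most cells in both very old mice, Vim fell by 0.95 on the log2 scale (edgeR adjusted p = 3.15e-07), and in the cluster with the deepest cells by 0.84 (adjusted p = 0.000781). Of all genes, 3.16% and 1.19% passed in these clusters. In the shallow cluster, where 0.169% did and whose cells had a median of 1605 to 2495 UMIs, it differed by -0.10 (adjusted p = 0.973). Tmsb10 gave -0.40 (edgeR adjusted p = 0.00427), -0.43 (adjusted p = 0.0122) and -0.17 (adjusted p = 0.932) in these clusters. Tmsb4x passed as higher in the first and the deepest cluster (0.33, edgeR adjusted p = 0.0296, and 0.40, adjusted p = 0.0228) and not in the shallow one (0.03, adjusted p = 0.994). The shallow cluster held 45.1% and 21.6% of the class in the young mice and 19.5% to 38.3% in the older mice.

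Whether Megakaryocyte-like cells differed from the other classes in this change was tested within mice, on the difference in log2 CPM between classes. The difference of the Vim changes was -0.56 (against Granulocyte progenitor-like) to -0.76 (against Basophil and mast-like), with limma adjusted p = 0.412 to 0.743 over the 5 pairs of classes. For Tmsb10 it was -0.31 to -0.52 (limma adjusted p = 0.510 to 0.787). By limma, 0 of 10261 to 11596 genes passed in each of the 5 pairs, and 672 to 943 had an unadjusted p under 0.05. DESeq2 was not run on these differences, and the Vim change is not shown to be particular to the class.

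The wider machinery was read from 74 further actin cytoskeleton genes, listed by function. In Megakaryocyte-like cells 2 of 71 tested rose and 1 fell, again beside 1.95% and 0.677% of all genes. DESeq2 called 1 higher and 0 lower, and 19 had an unadjusted p under 0.05, a count given without the share of all genes. Tpm4, a tropomyosin that lies along actin filaments, had 11.2 and 14.9 CPM in the young mice, 16.8 and 15.1 CPM in the middle-aged, 19.7 and 17.0 CPM in the old and 28.2 and 22.3 CPM in the very old (log2 difference 0.71, SE 0.15, edgeR adjusted p = 0.0264). Vcl, which encodes vinculin of adhesion sites, rose from 32.8 and 40.4 CPM in the young to 57.2, 45.4, 73.4 and 53.0 CPM in the older mice (log2 difference 0.62, SE 0.13, edgeR adjusted p = 0.0256).

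Lcp1, the filament-bundling plastin of leukocytes, fell from 56.98 and 49.98 CPM to 42.1, 39.5, 39.1 and 36.8 CPM (log2 difference -0.44, SE 0.09, edgeR adjusted p = 0.024). For all of these genes the older mice lay on 1 side of both young mice. Without the young male, Tpm4 gave 0.40 (edgeR adjusted p = 0.596) and Vcl 0.35 (adjusted p = 0.564), and neither passed without the old male, the very old male or either middle-aged mouse. Lcp1 did not pass without either young mouse, the old male or the very old male (edgeR adjusted p = 0.0705 to 0.234). The median over the 71 genes was 0.02, beside 0.00 over all genes. In MPP-like (71 tested), Granulocyte progenitor-like (71), Monocyte-like (70), Basophil and mast-like (71) and Erythroid-like cells (72), 0 genes of the list passed with edgeR and 0 with DESeq2. In those classes 8, 3, 5, 8 and 9 of them had an unadjusted p under 0.05.

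At middle age 1 gene of the wider list passed outside HSC-like cells, Capg in Granulocyte progenitor-like cells, where 0.394% of all genes passed. Capg, which caps actin filaments, is named after its values were seen. It was at 45.7 and 51.4 CPM in the young mice, 22.4 and 32.99 CPM in the middle-aged, 48.9 and 48.8 CPM in the old and 45.5 and 45.4 CPM in the very old (log2 difference at middle age -0.82, SE 0.13, edgeR adjusted p = 0.0264), and DESeq2 called it too. In MPP-like, Monocyte-like, Basophil and mast-like, Megakaryocyte-like and Erythroid-like cells 0 genes of the list passed with edgeR, and the unadjusted p was under 0.05 for 14, 15, 3, 5 and 28 of them. For the first 4 of these classes the range over all genes is given with the members below, and for Erythroid-like cells it is not given. DESeq2 called 0 in the first 4 of these classes and 9 of 72 in Erythroid-like cells, all higher, beside its 155 higher and 209 lower among all genes, and the median over the list there was 0.14.

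Tubulins and tubulin regulators, the microtubule genes set beside the actin list, gave 0 of 10 tested in the older mice in each of the 7 classes with edgeR and with DESeq2. The unadjusted p was then under 0.05 for 5 of them in HSC-like cells, beside 24.9% of all genes, and for 0 to 2 in the other classes. In HSC-like cells 6.93% of all genes passed as higher and 4.22% as lower with edgeR. At middle age edgeR called 0 of 10 in each class and DESeq2 1, higher in Granulocyte progenitor-like cells, where it called 65 higher and 25 lower among all genes, with an unadjusted p under 0.05 for 1 to 4. Of the immediate-early genes in the older mice, Jun in Megakaryocyte-like cells (11 tested) and Jund in Monocyte-like cells (11 tested) passed as lower with edgeR and not with DESeq2, beside 0.677% of all genes lower in the first and 0.0854% called in the second, and both are named after their values were seen. Jun was at 79.1 and 102 CPM in the young mice, 90.5 and 128 CPM in the middle-aged, 152 and 116 CPM in the old and 15.6 and 25.4 CPM in the very old (log2 difference -0.79, SE 0.16, edgeR adjusted p = 0.0195). Jund was at 28.3 and 37.2 CPM in the young, 27.9 and 30.01 CPM in the old and 14.4 and 13.6 CPM in the very old (log2 difference -0.70, SE 0.12, edgeR adjusted p = 0.0475). In both cases the very old mice were below the other 6, and the old mice overlapped or exceeded the young.

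At middle age 1 member passed in 1 class, Vim in Erythroid-like cells. Its level was 98.1 and 55.1 CPM in the young mice, 138 and 123 CPM in the middle-aged, 135 and 108 CPM in the old and 37.8 and 29.1 CPM in the very old. Both middle-aged and both old mice were above both young mice, and both very old mice were below them. The log2 difference of middle-aged against young mice was 0.81 (SE 0.14, edgeR adjusted p = 0.0458), while that of the old mice alone, 0.71, did not pass (adjusted p = 0.1004).

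With 1 of 10 members called, 0.495% of all genes passed in this comparison, and DESeq2 called 4 members, all higher, beside 155 genes higher and 209 lower among all genes. The call on Vim did not stand without the young female (edgeR adjusted p = 0.198), either middle-aged mouse (0.261 without the male, 0.562 without the female). Without a term for sex the adjusted p was 0.174, and without the cells of high doublet scores 0.0577. In cells not scored as cycling the log2 difference was 0.14 (edgeR adjusted p = 0.977). The fits within clusters that follow were again added after the values were seen. Of the 6 clusters of the class, in which 0.118% to 3.22% of all genes passed at middle age, Vim passed in 2, at 0.92 (edgeR adjusted p = 0.0222, 3.22% of all genes) in the cluster with the most cells and 1.09 (adjusted p = 0.00322, 0.47%) in another, and differed by 0.30 to 0.67 in the other 4. Arhgdib also passed as higher in 2 clusters, at 1.33 (edgeR adjusted p = 0.0142) in the cluster with the most cells and 0.94 (adjusted p = 0.0119) in the shallowest, whose cells had a median of 635 to 1250.5 UMIs and where 0.96% of all genes passed. The shallowest cluster was led by Gm42418, ahead of Car1 and Mt2, at 0.067 of the library median of UMIs per cell. Tmsb4x was at 337 to 2482 CPM in it, against 47.5 to 123 CPM in the cluster with the most cells. Its cells are thus not shown to be erythroid alone. Sh3bgrl3 (0.75, adjusted p = 0.0142) and Tmsb10 (0.87, adjusted p = 0.0328) passed in the cluster with the most cells, and Tmsb4x (0.85, adjusted p = 0.00419) in the other cluster in which Vim passed.

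In the very old mice, 7 members were lower in Erythroid-like cells than in any of the other 6 mice: Actg1, Arpc2, Sh3bgrl3, Arhgdib, Vim, Tmsb4x and Tmsb10. Pfn1 went the other way, with both very old mice above the other 6, and Actb and Cfl1 were not separated. The share of all genes that were lower in this way in the class was not counted. Arhgdib was at 153 and 99.6 CPM in the young mice, 212 and 186 CPM in the middle-aged, 189 and 186 CPM in the old and 89.7 and 93.8 CPM in the very old. Sh3bgrl3 was at 132 and 103 CPM, 184 and 162 CPM, 170 and 167 CPM, and 83.3 and 87.6 CPM at the same ages. Tmsb4x was at 266 and 251 CPM, 312 and 348 CPM, 277 and 385 CPM, and 189 and 178 CPM.

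For these 3 genes and for Vim the old mice lay above and the very old mice below both young mice, so the mean of the 4 older mice joins opposite moves, with a log2 difference of 0.04 for Sh3bgrl3 (SE 0.09, edgeR adjusted p = 0.98). The make-up of the class moved as well. Its cluster with the most cells held 23.5% and 40.7% of the class in the young mice, 17.7% and 20.9% in the middle-aged, 26.4% and 19.1% in the old and 47.7% and 49.1% in the very old. Inside the 6 clusters, both very old mice were below all the other 6 mice in 6 clusters for Vim, Arpc2 and Sh3bgrl3, in 5 for Arhgdib and Tmsb4x and in 4 for Actg1 and Tmsb10. These counts too have no share of all genes beside them.

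Summed erythroid markers, 19 of 19 with UMIs, were 8581 to 8726 CPM in the young mice, 6569 to 7045 CPM in the middle-aged, 7355 and 6843 CPM in the old and 9955 and 8697 CPM in the very old. HSC markers, 15 of 15 with UMIs, were 123 to 179 CPM, 307 to 352 CPM, 235 and 188 CPM, and 147 and 125 CPM at the same ages. MPP markers (7 of 7) were 77.0 to 123 CPM, 146 to 151 CPM, 116 and 154 CPM, and 54.9 and 59.4 CPM. T and NK cell markers (3 of 4, Cd3e at 0) were 28.1 to 51.9 CPM, 53.1 to 80.3 CPM, 83.3 and 61.0 CPM, and 18.5 and 22.0 CPM. Lymphoid and B cell markers were likewise lowest in both very old mice, while HSC and granulocyte progenitor markers overlapped those of other mice. The part of these shifts in the levels of Vim and the other members was not tested.

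**Figure D3:**
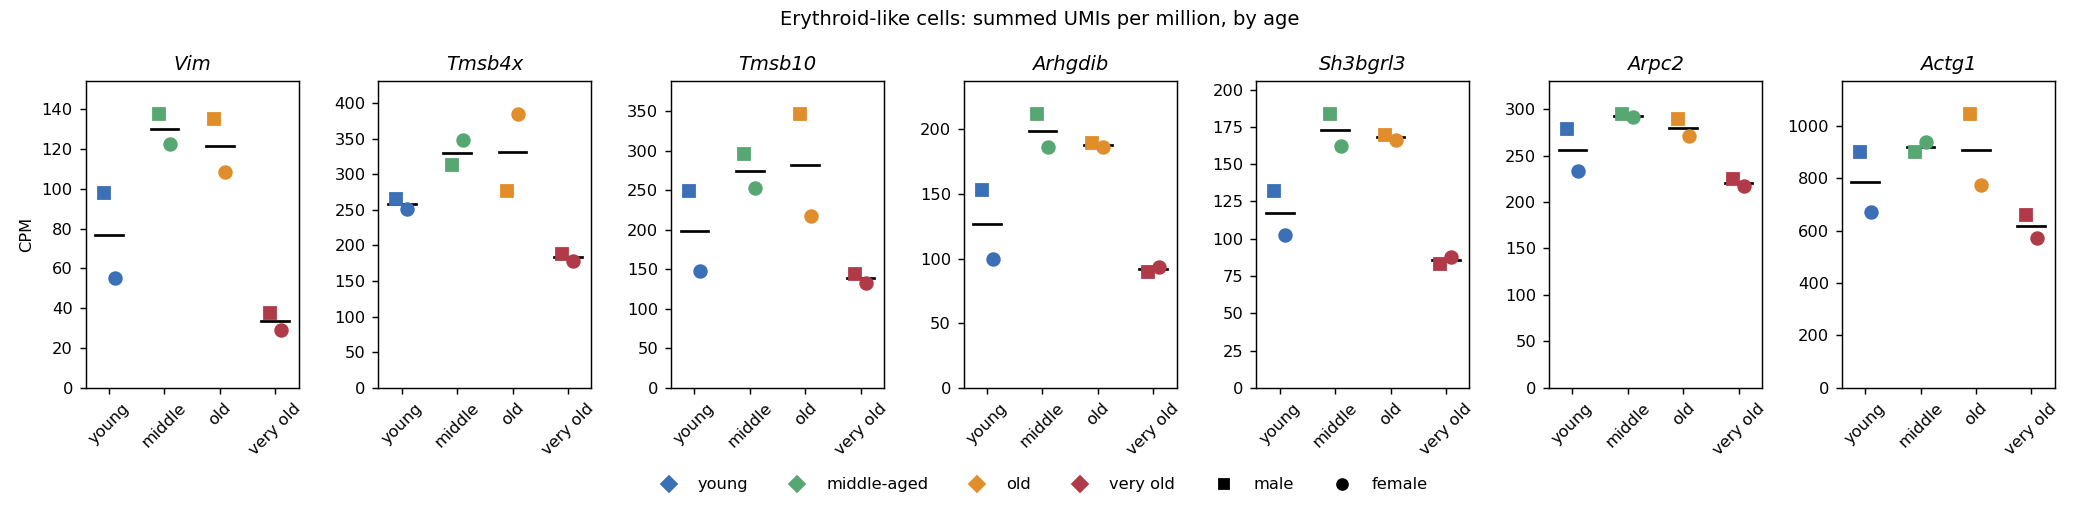
CPM (y axis, from 0) against age (x axis) in Erythroid-like cells for 7 members; squares are males, circles females and the bars the mean of the 2 mice of an age. The members drawn are those for which both very old mice lie below the other 6, at 37.8 and 29.1 CPM for Vim. Pfn1, with both very old mice above the other 6, Actb and Cfl1 are not drawn.

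In the other 5 classes 0 of 10 members passed at middle age with edgeR and 0 with DESeq2, and the unadjusted p was under 0.05 for 1 in MPP-like, 2 in Granulocyte progenitor-like, 2 in Monocyte-like, 0 in Basophil and mast-like and 2 in Megakaryocyte-like cells, beside 3.7% to 15.5% of all genes. Of all genes, 0.843%, 0.394%, 0.398%, 0.0193% and 0.125% passed there in the same order. In Megakaryocyte-like cells all 10 members had a difference below 0 at middle age, with -0.45 for Vim (edgeR adjusted p = 0.3005) and -0.38 for Tmsb10 (adjusted p = 0.189). The median over the members was -0.13, beside 0.01 over all genes. Within the 3 clusters of the class, Vim passed as lower at middle age in the one with the most cells in both very old mice (-0.46, edgeR adjusted p = 0.0317, beside 0.326% of all genes), and gave -0.50 (adjusted p = 0.324) in the deepest and -0.03 (adjusted p = 0.9996) in the shallow one.

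Actb and Pfn1 stood high in the very old mice. Both very old mice exceeded all the other 6 for Actb in 6 of the 7 classes, the exception being Erythroid-like cells, and for Pfn1 in 5 of 7. In MPP-like cells Actb was at 2449 and 2339 CPM in the young mice, 2597 and 2235 CPM in the middle-aged, 2487 and 2275 CPM in the old and 3582 and 2924 CPM in the very old. Pfn1 in the same cells was at 748 and 770 CPM in the young, 672 and 720 CPM in the old and 957 and 887 CPM in the very old. The log2 difference of Actb over the 4 older mice was 0.19 to 0.31 in the 6 classes tested and passed in none (edgeR adjusted p = 0.355 to 0.792). The classes share the same 2 very old libraries, and how many of all genes stood above the other 6 mice in them was not counted.

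Spread between cells was then compared in the 6 classes. By limma, 0 of 10 members passed in the older mice in any of them, and 0 at middle age, which does not show that their spread stayed the same. In the older mice 0.0414% of all genes passed in MPP-like, 0% in Granulocyte progenitor-like, 0.0227% in Monocyte-like, 0% in Basophil and mast-like, 0% in Megakaryocyte-like and 0.0216% in Erythroid-like cells, and the unadjusted p was under 0.05 for 5, 3, 2, 1, 3 and 2 members, beside 2.9% to 4.76% of all genes. At middle age the shares were 0%, 0.024%, 0%, 0%, 0.0196% and 0%, and 4, 2, 4, 1, 3 and 2 members had an unadjusted p under 0.05, beside 3.96% to 6.14% of all genes. DESeq2 was not run on the spread, which is not a count.

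The spread of Vim in Megakaryocyte-like cells was 1.19 and 1.14 in the young mice, 0.96 and 0.92 in the middle-aged, 0.82 and 0.93 in the old and 0.92 and 0.78 in the very old. As for its mean level, all older mice were below both young mice (difference -0.30, SE 0.05, limma adjusted p = 0.375). Tmsb10 in that class was at 0.17 and 0.18 in the young and 0.47, 0.29, 0.47 and 0.32 in the older mice, all of them above (difference 0.21, SE 0.07, limma adjusted p = 0.994). In MPP-like cells Tmsb4x was at -0.28 and -0.30 in the young and -0.36, -0.48, -0.58 and -0.46 in the older mice (difference -0.18, SE 0.04, limma adjusted p = 0.998).

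In MPP-like cells, Arpc2, Arhgdib, Vim and Pfn1 were also lower in spread in all 4 older mice than in both young mice, without passing. How many of all genes did the same was not counted. Actb had differences of 0.12 to 0.20 in 5 classes and -0.07 in Erythroid-like cells (limma adjusted p = 0.979 to 1). In Monocyte-like cells its spread was 0.88 and 0.62 in the young mice, 0.38 and 0.33 in the middle-aged, 0.85 and 0.63 in the old and 1.06 and 1.07 in the very old, so that the old mice overlapped the young. Without thinning, 6 tests of members over the 6 classes passed as higher in the older mice, and the share of all genes was not counted there. That setting compares cells of unequal depth.

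**Figure D4:**
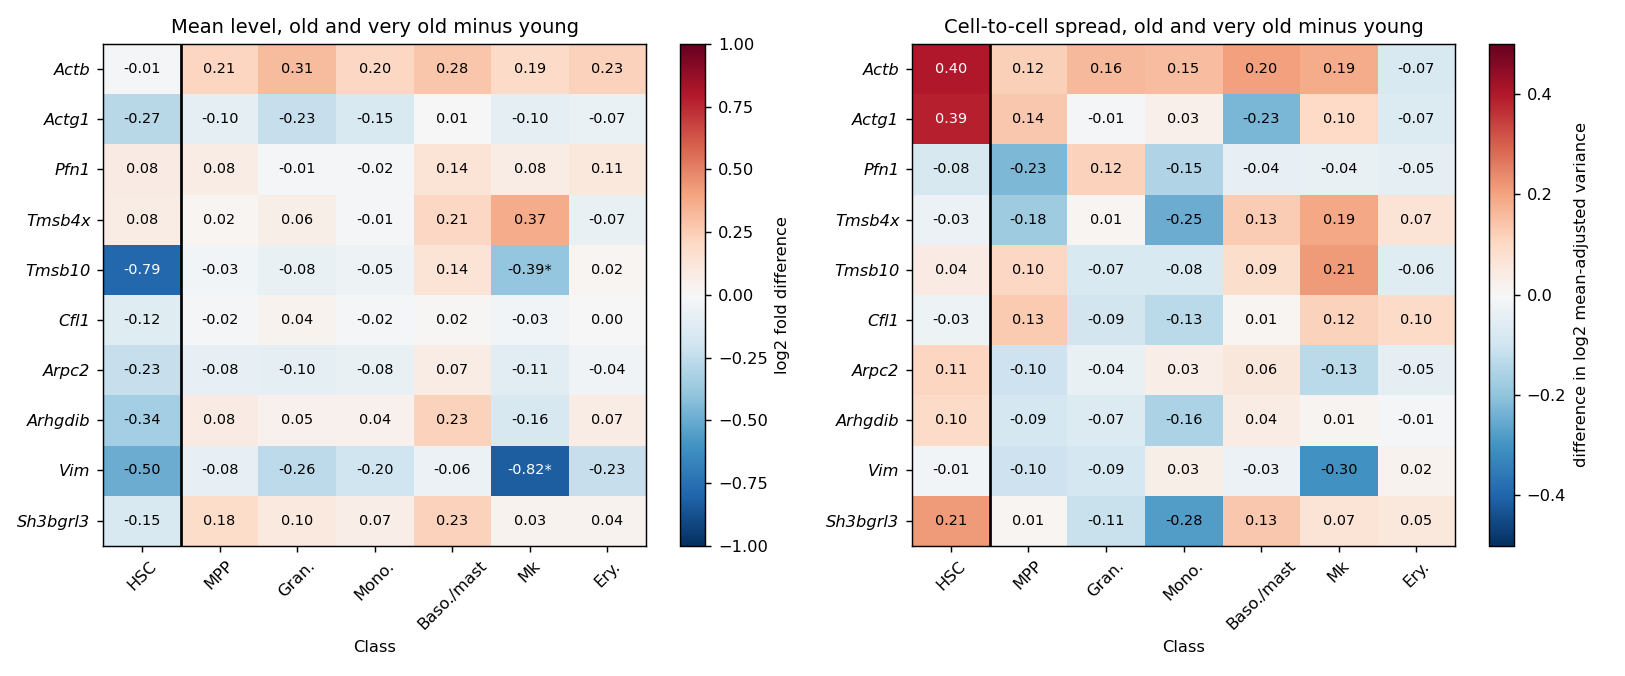
Older minus young differences for each member (rows) and class (columns), as log2 fold of the mean level on the left and as difference in log2 mean-adjusted variance on the right, by colour and number; a star marks an adjusted p under 0.05, and HSC-like cells, left of the black line, are described without a test. Stars stand at Vim (-0.82) and Tmsb10 (-0.39) in Megakaryocyte-like cells for the mean level, and there are 0 for the spread.

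In HSC-like cells the spread of Actb was 0.20 and 0.02 in the young mice, 0.20 and 0.02 in the middle-aged, 0.29 and 0.32 in the old and 0.78 and 0.65 in the very old. Actg1 was at 0.10 and -0.29, 0.41 and 0.17, 0.22 and 0.36, and 0.35 and 0.22 at these ages. Sh3bgrl3 was at 0.01 and -0.02, 0.16 and 0.03, 0.20 and 0.21, and 0.16 and 0.26. For these 3 members all 4 older mice were above both young mice, and for the other 7 the groups overlapped, with differences of -0.08 to 0.11. No share of all genes was counted for such a separation in spread. Actg1 was above both young mice already at middle age, while Actb overlapped there and was highest in the very old mice.

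These are the values on which the members were chosen, and they moved with the random draw of UMIs. With another draw the difference of Actg1 was 0.22 in place of 0.39. Over 11 settings that thinned the cells, all 4 older mice were above both young mice in 11 for Sh3bgrl3, 10 for Actb, 9 for Actg1, 5 each for Arpc2 and Arhgdib, 1 each for Cfl1 and Vim, and 0 for Pfn1, Tmsb4x and Tmsb10. The difference ranged from 0.33 to 0.51 for Actb, from 0.21 to 0.49 for Actg1 and from 0.12 to 0.28 for Sh3bgrl3. The 8 mice had 347 to 822 HSC-like cells at that depth, and 8.4% and 16.1% of the class scored as cycling in the young mice, 15.4% and 8.2% in the middle-aged, 1.3% and 6.5% in the old and 4.2% and 7.1% in the very old.

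**Figure D5:**
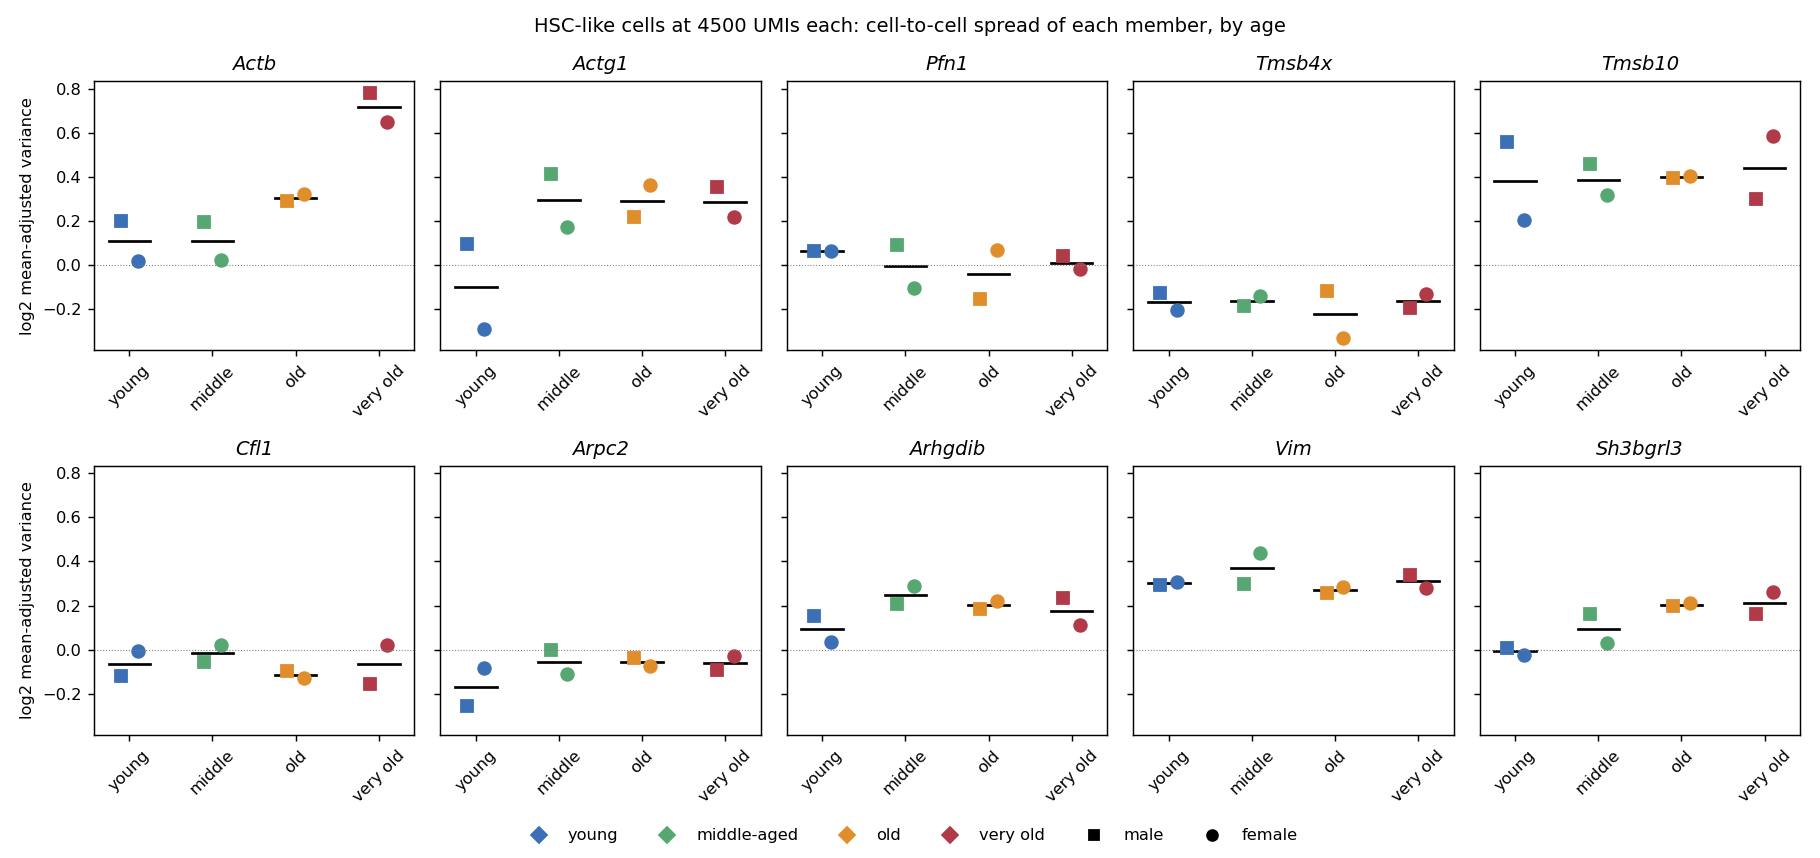
Spread of each member in HSC-like cells at 4500 UMIs each, as log2 mean-adjusted variance (y axis) against age (x axis); squares are males, circles females and the bars the mean of the 2 mice of an age. Actb reaches 0.78 and 0.65 in the very old mice, Actg1 and Sh3bgrl3 are higher in all older than in all young mice, and the other 7 panels overlap.

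The mean levels in HSC-like cells followed another pattern. Tmsb10 was at 583 and 529 CPM in the young mice, 366 and 375 CPM in the middle-aged, 286 and 285 CPM in the old and 282 and 457 CPM in the very old. The share of cells with a Tmsb10 UMI was 84.4% and 86.9% in the young, 68.8% and 74.1% in the middle-aged and 61.1% to 72.4% in the older mice, against 35.1% to 71.0% in Erythroid-like cells at the same depth. Vim was at 387 and 358 CPM in the young, 346 and 297 CPM in the middle-aged, 242 and 241 CPM in the old and 258 and 320 CPM in the very old.

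The markers of the class moved as well. Summed HSC markers (15 of 15 with UMIs) were 2179 to 2260 CPM in the young mice, 2570 to 3927 CPM in the middle-aged and 2787 to 3834 CPM in the older mice, and megakaryocyte markers (9 of 9) 148 to 181, 171 to 186 and 243 to 325 CPM. MPP markers (7 of 7) were 1322 to 1654, 809 to 974 and 517 to 854 CPM, lymphoid markers (10 of 10) 69.7 to 93.5, 35.2 to 43.4 and 21.1 to 38.8 CPM, and macrophage markers (6 of 6) 36.6 to 40.6, 6.35 to 12.8 and 3.93 to 16.7 CPM. Their part in the levels of the members and of the wider list in HSC-like cells was not tested.

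Actg1, Arpc2 and Arhgdib were, like Tmsb10 and Vim, lower in all 4 older mice than in both young mice. Of all genes in this class, 24.9% had an unadjusted edgeR p under 0.05. The share with such a separation was not counted. Tmsb4x was above them in all 4, by little, at 1911, 1951, 2219 and 1936 CPM against 1896 and 1902 CPM. Actb was at 2544 and 2661 CPM in the young mice, 2049 and 2177 CPM in the old and 3295 and 3045 CPM in the very old, on both sides of the young. Of the 3 members whose spread was higher in all older mice, the level was thus lower in all of them for Actg1 and overlapped for Actb and Sh3bgrl3.

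In counts at equal depth, the 10th and the 90th percentile of Actb UMIs per HSC-like cell were 6 and 18 in the young male, 7 and 18 in the young female, 4 and 15 in the old male, 4 and 16 in the old female, 6 and 24 in the very old male and 6 and 20 in the very old female. Of the old and very old mice, only the very old had an upper percentile above both young mice. The middle-aged mice are not listed here.

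Together the 10 members made up 0.972% and 0.958% of the UMIs of HSC-like cells in the young mice, 0.853% and 0.840% in the middle-aged, 0.770% and 0.793% in the old and 0.925% and 0.905% in the very old. The coefficient of variation of their sum between cells was 0.241 and 0.215, 0.266 and 0.262, 0.282 and 0.299, and 0.301 and 0.289. The share was lower and the coefficient higher in all older than in both young mice. The coefficient was also higher in all older mice in Megakaryocyte-like cells, at 0.299 and 0.308 in the young and 0.336 to 0.381 in the older mice, and in Basophil and mast-like cells, at 0.340 and 0.338 against 0.363 to 0.397. It overlapped in the other 4 classes, for example at 0.210 and 0.201 in the young and 0.199 to 0.211 in the older mice in MPP-like cells.

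Across HSC-like cells of a mouse, the Spearman correlation of member pairs had a median over the 45 pairs of 0.067 and 0.047 in the young mice, 0.0998 and 0.101 in the middle-aged and 0.076 to 0.130 in the older mice. Actb with Actg1 had the highest median over the mice, with values of 0.21 to 0.24 in the young and 0.26 to 0.36 in the older mice. All 4 older mice were above both young mice for 11 of the 45 pairs and below for 0. The counts above and below were 11 and 3 in Basophil and mast-like, 7 and 3 in Monocyte-like, 4 and 2 in Granulocyte progenitor-like, 1 and 2 in Megakaryocyte-like, 1 and 6 in MPP-like and 0 and 2 in Erythroid-like cells. Pairs of other genes were not examined, so these counts have no share to be set beside. The HSC-like cells are also those on whose spread the members were chosen. These correlations are weak, the cells of a mouse share its library, and they are a description.

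Genes of the wider list were not used in choosing the members and were tested in HSC-like cells. Of 73 tested, 7 rose and 5 fell, where 6.93% of all genes were higher and 4.22% lower. DESeq2 called 2 in each direction, beside 415 higher and 136 lower among all genes. By edgeR, 28 (38.4%) had an unadjusted p under 0.05, beside 24.9% of all genes. The median over the 73 genes was -0.05, beside -0.03 over all genes. Among those that passed, Pls3, a plastin that bundles actin, had the largest rise, from 3.03 and 2.73 CPM in the young mice and 6.95 and 5.62 CPM in the middle-aged to 9.85, 7.61, 6.87 and 6.98 CPM in the older mice (log2 difference 1.42, SE 0.29, edgeR adjusted p = 0.00679). Cttn, the branch-stabilising cortactin, rose from 10.2 and 8.67 CPM to 15.95, 20.9, 23.3 and 17.5 CPM (log2 difference 1.04, SE 0.21, edgeR adjusted p = 0.00703).

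Smaller rises were seen for the kinase Rock2 (0.44), the tropomyosin Tpm1 (0.38) and the formin Diaph1, which lengthens filaments (0.37). The others that rose were Dstn, a relative of cofilin (0.36), and the myosin light chain Myl6 (0.27), named here to complete the 7. Of the genes that fell, Actn1, which encodes the cross-linker alpha-actinin 1, was at 21.5 and 20.6 CPM in the young mice and 11.4, 11.4, 15.5 and 14.2 CPM in the older mice (log2 difference -0.70, SE 0.16, edgeR adjusted p = 0.0146). Coro1a, the coronin of leukocytes and one of the leading genes of the largest MPP-like cluster, was at 491 and 472 CPM in the young and 300.2, 371, 326 and 414 CPM in the older mice (log2 difference -0.46, SE 0.09, edgeR adjusted p = 0.00579), and gave -0.28 without the young male (adjusted p = 0.3). The cross-linker filamin A (Flna, -0.51), Cap1, which helps recycle actin monomers (-0.44), and Lcp1 (-0.42) fell too. Leaving out the young male was examined for all of these genes but Dstn and Myl6, and none then passed (edgeR adjusted p = 0.0741 for Cttn to 0.423 for Rock2), and Rock2 gave 0.29 without the very old male (adjusted p = 0.132).

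At middle age 17 of the 73 genes had an unadjusted p under 0.05 in HSC-like cells, a count given without the share of all genes. By edgeR 1 of them passed, where 2.48% of all genes did, and DESeq2 called 0. This was Cnn2, an actin-binding calponin named after its values were seen, at 84.4 and 82.5 CPM in the young, 64.7 and 52.2 CPM in the middle-aged and 70.2 to 85.8 CPM in the older mice (log2 difference -0.51, SE 0.12, edgeR adjusted p = 0.0427).

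By function, 1 of 11 bundling and cross-linking genes rose and 4 fell, beside the 6.93% and 4.22% of all genes, and DESeq2 called 0 higher and 2 lower. In the Arp2/3 complex, whose subunit Arpc2 is a member, 0 of the other 8 passed with edgeR or DESeq2 and 2 had an unadjusted p under 0.05. Of 11 immediate-early genes tested, Junb rose from 44.4 and 43.6 CPM to 110, 77.1, 56.3 and 66.6 CPM (log2 difference 0.78, SE 0.15, edgeR adjusted p = 0.0055), Ier3 rose by 0.63 (SE 0.14, adjusted p = 0.0102), and DESeq2 also called 2. Without the young male neither passed (edgeR adjusted p = 0.155 and 0.0763). At middle age 7 of the 11 had an unadjusted p under 0.05, a count given without the share of all genes. The median over the 11 was 0.60, and 3 of them were below 0. By edgeR and by DESeq2, 0 of the 11 rose and 1 fell. This was Btg2, named after its values were seen, at 29.2 and 21.6 CPM in the young mice, 5.12 and 9.67 CPM in the middle-aged, 23.03 and 19.03 CPM in the old and 11.3 and 13.7 CPM in the very old (log2 difference at middle age -1.80, SE 0.27, edgeR adjusted p = 0.00346). Lcp1 was the only gene of the wider list that passed in both HSC-like and Megakaryocyte-like cells, where it was lower in each. Both comparisons rest on the same 8 mice.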

How the data were processed

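UMI counts per gene and cell were used as the authors deposited them, as filtered 10x matrices of 8 libraries (Chromium v.3). The file headers name Cell Ranger 6.0.0, the study's methods another version, and the labels mm10. The members and gene lists were chosen with earlier results of these data known. A cell was kept when at least 200 genes were detected in it (59136 of 59465). Cells were clustered on 2000 variable genes, 30 principal components, Harmony (theta 1), 20 neighbours and Leiden resolution 0.8 (leidenalg 0.10.2), giving 26 clusters named from markers. The variable genes left out the members, the wider, tubulin and immediate-early lists and 21 genes known to change with age. Genes of the Y chromosome, Xist and Tsix were left out as well. Doublets were not removed, and an alternative left out the highest-scoring cells. These classes are rebuilt and may differ from those of the study.

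Counts were summed per mouse and class and tested with edgeR 4.0.16 (TMM, filterByExpr, quasi-likelihood) on age group and sex, with Benjamini-Hochberg adjustment over all genes of a class. DESeq2 1.42.0 was an alternative. Spread was fitted with limma 3.58.1 for genes found in at least 10% of cells, with a lowess trend of span 0.3. On simulated data, edgeR recovered 42% to 68.7% of planted 1.5-fold changes and 74.2% to 89% of 2-fold changes. False calls were 17 of 131 in HSC-like, 14 of 147 in Megakaryocyte-like and 20 of 177 in Erythroid-like cells. For spread, planted rises were in the variance beyond counting noise. Those of 1.5-fold were recovered in 9% to 26% and those of 3-fold in 48% to 61%. False calls were 6 of 70 and 28 of 85 in HSC-like and 7 of 94 and 16 of 98 in Megakaryocyte-like cells.

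Of the wider, tubulin and immediate-early lists, the named genes are those that passed and whose 4 older mice all lay beyond both young mice, at most 5 in each direction for the first list and 3 for the others. Dstn, Myl6, Cnn2, Capg, Btg2, Jun and Jund are named outside this rule, after their values were seen. Each animal is 1 library. Total UMIs of 83062003 to 150135029 and a median of 8505 to 14951 UMIs per cell set the precision, and shares of cells with a UMI cover counting at 4500 UMIs only. The CPM values were computed here from these counts.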

Additional observations from a re-analysis of the deposited data

Results flagged for a closer look

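Among the 4 older mice, 10 values lay far from the other 3 by Dixon's criterion at the 95% level, which chance alone exceeds in about 1 of 20 groups. The groups were the 10 members in each of 7 classes, for mean level and for spread, so several such values arise by chance alone. For the mean level in HSC-like cells these were Sh3bgrl3 in the very old female (533 CPM), Tmsb10 in the same mouse (457 CPM) and Tmsb4x in the very old male (2219 CPM). In other classes they were Tmsb10 in MPP-like cells of the old female (608 CPM), Arpc2 in Granulocyte progenitor-like cells of the old male (588.5 CPM), Sh3bgrl3 in Basophil and mast-like cells of the old female (548.5 CPM) and Actg1 in Megakaryocyte-like cells of the very old male (1467 CPM). For spread they were Cfl1 in Granulocyte progenitor-like cells of the very old male (0.0546), Sh3bgrl3 in Basophil and mast-like cells of the old female (-0.0420) and Pfn1 in Erythroid-like cells of the old male (0.104).

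In 8 cases among the members and the list genes that passed, both old mice and both very old mice lay on opposite sides of the young mice. The difference was not tested, and such cases were not counted among all genes. In Erythroid-like cells the old mice were above and the very old below for Sh3bgrl3 (very old mean 85.5 CPM), Arhgdib (91.7 CPM), Vim (33.4 CPM) and Tmsb4x (183 CPM), and in Megakaryocyte-like cells for Jun (20.5 CPM). Pfn1 was above in the very old mice and below in the old in MPP-like cells (922 CPM) and in HSC-like cells (800.3 CPM), as was Actb in HSC-like cells (3170 CPM). Arhgdib was below both young mice in all 4 older mice in Megakaryocyte-like cells (mean 394 CPM) and above them in all 4 in Basophil and mast-like cells, and the difference of the changes, -0.38, did not pass (limma adjusted p = 0.718).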

How the results depend on the processing

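Vim in Megakaryocyte-like cells passed under every alternative that kept the whole class, at -1.08 to -0.61. The number of member calls in the older mice (2) was 1 with age in weeks or without a term for sex, and 4 without a filter on low counts or without cycling cells (1 to 3 without 1 mouse). Cells without cycling scores could not be compared in Granulocyte progenitor-like and Monocyte-like cells, which held under 30 such cells in a mouse. At middle age the number of member calls (1) was 2 in cells of 4500 UMIs or more, 4 with DESeq2, 8 without the filter, 3 without Harmony, and 0 without a term for sex, without cycling cells or without high doublet scores (0 to 5 without 1 mouse). The number of calls on spread (0) was 6 without thinning in the older mice (0 to 0 without 1 mouse), and at middle age 1 with the squared coefficient of variation or without Harmony (0 to 2 without 1 mouse). Calls on the wider, tubulin and immediate-early lists (19) were 7 with DESeq2, 6 with age in weeks, 45 without the filter and 7 without a term for sex (1 to 24 without 1 mouse, with 1 without the young male, 8 without the very old male and 12 without the old male).

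In HSC-like cells the median difference in member level was -0.192 and stayed within 1 SD in each alternative (-0.276 to -0.151 without 1 mouse). The median difference in spread was 0.0678, and was 0.0888 in cells with 2 or more HSC markers, 0.118 with another thinning, 0.157 at 5% detection, 0.332 without thinning, 0.106 at resolution 1.6, 0.0944 at a lower thinning depth and 0.126 without Harmony (0.0152 without the young female to 0.0944 without the very old male). Of the alternatives for single members, 50 kept their side of the threshold and 23 lost it, and for list genes 198 and 87. The cause was not tested. No paired analysis was possible because the labels give no replicate numbers that pair mice across ages, and the term for sex is the only block in the model.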
